A study of Mus musculus and Homo sapiens with 42 samples.

Results

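The 55 genes described here lie on mouse chromosome 8 around Chd9, the gene for chromodomain helicase DNA-binding protein 9. They were taken from a fixed list of neighbours that leaves out Chd9 itself, and they are 55 of the 32764 genes listed in at least 1 of the 4 mouse count tables. All 55 were found in the GENCODE annotation of the mm9 build on chromosome 8 between positions 86095599 and 98331366, a span of 12.24 Mb, with 29 members on the lower-coordinate side of Chd9 (93352734 to 93578407, plus strand) and 26 on the other side. Of the members, 6 lie within 1 Mb of the Chd9 gene, 14 lie 1 to 3 Mb away and 35 lie farther than 3 Mb. Distances run from a member's lowest coordinate to the nearer end of Chd9. On the lower-coordinate side they therefore include the length of the member itself. A further 151 listed genes lie between the outermost members and are used only for counts.

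RNA-seq libraries came from mice in which Cre recombinase, driven by the beta-actin promoter, had removed the coding exons of Chd9. The strain labels read FVB;129P2-Chd9, and the study bred the deleted allele, made in embryonic stem (ES) cells, to FVB for a few generations before intercrossing heterozygotes. The MEF came from embryos of day 13.5, the brain and liver from individual littermate embryos, and the ESC groups are separate lines. p-values here measure the spread between these few samples. The groups were Chd9-/- (KO) and wild type (WT) E15 embryonic liver (2 and 2 libraries), E15 embryonic brain (2 and 2), early-passage primary mouse embryonic fibroblasts (MEF; 4 and 3) and early-passage ES cell lines in 2i medium with LIF (ESC; 3 and 3). Enlarged lymph nodes of moribund mice gave lymphomas that were KO, Chd9+/- (HET) or WT, 3 each, and all of these carried the EmuMyc transgene, which drives Myc in B cells from an immunoglobulin enhancer. Human cell line libraries of the series were not used.

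Chd9 belongs to a family of ATPases that move nucleosomes. Genes that share a chromosome neighbourhood may share regulatory DNA, and an allele made in ES cells of one strain brings neighbouring DNA of that strain along when it is bred into another. The comparison of neighbours between Chd9 genotypes asks whether such a segment, or a local effect of the deletion, is visible in their RNA. In this design the loss of Chd9 and a linked 129P2 segment cannot be told apart, because both separate the same groups.

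The neighbourhood holds genes of several well-known kinds. Rbl2 encodes a pocket protein of the retinoblastoma family, Fto an RNA demethylase tied to body weight, Rpgrip1l and Bbs2 proteins of the primary cilium, and Irx3, Irx5 and Irx6 homeobox factors of the Iroquois family. Mt1, Mt2 and Mt3 encode metallothioneins, which bind zinc and copper. Pairs of members that overlap on opposite strands are Rbl2 with Aktip (11804 bases), Nfix with Lyl1 (3259 bases) and Ciapin1 with Coq9 (38 bases). The strand setting of the read counting is not given in the sources used here, so reads of such partners cannot be fully separated.

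Library totals ran from about 11729100 to 15820000 counted reads in the lymphomas and from 26065000 to 45422000 elsewhere, and the members together took 0.292% to 0.585% of the reads of a library. Defining markers of each labelled tissue were read there. The 4 hepatic markers summed to 133578 to 155170 CPM (reads of a gene relative to all reads of its library) in the livers, the 5 neural markers to 3817 to 4091 CPM in the brains, the 5 fibroblast markers to 13022 to 18882 CPM in MEF, the 4 pluripotency markers to 2525 to 2895 CPM in ESC and the 5 B cell markers to 1656 to 3107 CPM in the lymphomas. Summed counts of 4 Y-linked genes were 6260 to 7992 in every WT liver and brain and 3 to 7 in every KO one, and in ESC the order was turned around, with 2 to 11 in WT and 5981 to 7784 in KO. Sex and genotype therefore cannot be told apart in the E15 tissues and in ESC. The 3 KO lymphomas had at most 2 such counts, while 1 of 3 WT and 2 of 3 HET lymphomas had 2683 to 3586. In MEF the summed counts were 6670, 10488, 6021 and 0 in KO and 2, 7699 and 7384 in WT. The numbers on the labels of both KO livers recur on those of the WT brains.

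Chd9 itself was checked first, and it was lower in every KO library than in any WT library of its experiment. The values below are CPM scaled by trimmed-mean (TMM) factors within each experiment. In E15 liver, Chd9 was at 38.1 and 42.8 CPM in WT and at 14.7 and 13.4 CPM in KO, and in E15 brain at 152 and 154 CPM in WT and at 27.5 and 22.3 CPM in KO. MEF held 127, 128 and 124 CPM in WT and 31.8, 32.5, 36.9 and 32.5 CPM in KO. ESC lines held 87.9, 88.5 and 201 CPM in WT and 25.9, 28.1 and 31.7 CPM in KO. The lymphomas were ordered by dose, with 79.9, 73.7 and 65.9 CPM in WT, 44.8, 28.1 and 44.3 CPM in HET and 13.2, 9.23 and 13.6 CPM in KO. The log2 fold change of Chd9 was -1.53 ± 0.12 (SE) in liver, -2.62 ± 0.09 in brain, -1.92 ± 0.07 in MEF, -2.14 ± 0.34 in ESC and -2.61 ± 0.26 in lymphoma, and -2.15 ± 0.13 in a fit of all 27 KO and WT libraries with experiment as a term. By edgeR's quasi-likelihood test, adjusted over all genes tested, the adjusted p of Chd9 was 4.17e-05 in brain, 0.000178 in MEF and 0.033 in lymphoma. It was 0.0779 in liver, 0.0632 in ESC and 0.926 in HET against WT lymphomas (log2 fold change -0.91 ± 0.24). In these groups even this drop missed the threshold of 0.05 by edgeR, and the intervals given below say more than the counts of calls. The study, which used DESeq2, reported Chd9 as downregulated in both E15 tissues. It also describes a shorter Chd9 mRNA from the exons left in the KO allele, so KO reads here need not be intact Chd9 mRNA.

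No member passed the threshold in any comparison. In E15 liver, 50 of the 55 members passed the filter on low counts and 0 were called at an adjusted p under 0.05, where 0.0322% of all 15515 genes tested were. In E15 brain all 55 were tested and 0 were called (background 0.0523%), in MEF 0 of 54 (background 0.0131%), in ESC 0 of 50 (background 0.155%) and in KO against WT lymphomas 0 of 45 (background 0.00744%). The HET against WT and KO against HET lymphomas, which share libraries with that comparison, gave 0 of 45 each, and there 0% of all genes were called. In the combined fit 0 of 53 members were called (background 0.0113%). All genes tested include those of the sex chromosomes. On autosomes other than chromosome 8, 0 of 13633 genes were called in liver, 0 of 14920 in brain and 8 of 14058 in ESC. In MEF it was 1 of 13833, in KO against WT lymphomas 0 of 11916 and in the combined fit 0 of 16056. DESeq2 called 0 members in each of these comparisons except ESC, where it called 2.

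At an unadjusted p under 0.05 the same edgeR fits held 4 of 50 members in liver (8%, background 2.81%), 7 of 55 in brain (12.7%, background 3.42%), 6 of 54 in MEF (11.1%, background 1.04%), 3 of 50 in ESC (6%, background 11.9%) and 2 of 45 in KO against WT lymphomas (4.44%, background 3.87%). The HET against WT lymphomas held 0 of 45 (background 4.48%), the KO against HET lymphomas 0 of 45 (background 2.43%) and the combined fit 3 of 53 (5.66%, background 3.82%). The members' share was above that of all genes in liver, brain and MEF. It was slightly above in KO against WT lymphomas and the combined fit. In ESC and in the HET against WT and KO against HET lymphomas it was below. With the replicate number as a block, since same-numbered ESC lines deviated together, 7 of 50 members in ESC had an unadjusted p under 0.05 (14%, background 17.1%) and 0 passed adjustment (background 0.0774%). The other genes between the outermost members, which were not on the list, stood at 6.10% in liver, 5.68% in brain, 6.02% in MEF, 13.1% in ESC, 5.48% in KO against WT lymphomas and 10.2% in the combined fit, the last above the members' share. On autosomes other than chromosome 8 the share was 2.60% in liver, 3.18% in brain, 0.940% in MEF and 9.81% in ESC. It was 3.86% there in KO against WT lymphomas and 3.29% in the combined fit. These shares are descriptions, since neighbouring genes are not independent.

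The members' differences were small where the data were precise. The median log2 fold change of the members was 0.05 in liver, 0.02 in brain, 0.02 in MEF, -0.07 in ESC, -0.00 in KO against WT lymphomas and 0.01 in the combined fit, beside 0.01, 0.00, 0.00, -0.02, -0.03 and -0.01 for all genes tested. The 95% interval of the log2 fold change lay within ±0.5 for 46 of 55 members in brain, 32 of 54 in MEF, 30 of 50 in liver, 14 of 50 in ESC, 1 of 45 in lymphoma and 39 of 53 in the combined fit. Within ±1 lay 52, 45, 45, 36, 32 and 52 of them in the same order. For those members a change as large as that of Chd9 lies outside the interval. In the lymphomas smaller changes were not detectable at this replication.

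The nearest members on the higher-coordinate side are Rbl2, Aktip, Rpgrip1l, Fto and Irx3. Those on the other side are Tox3, Sall1 and Cyld, whose lowest coordinates lie 0.582, 1.802 and 2.132 Mb from Chd9. In the combined fit the log2 fold changes of these genes, apart from Sall1, which was not in that fit, lay between -0.12 and 0.05. In the single KO against WT comparisons the widest were those of Irx3 in brain (-0.67, described with the homeobox factors) and Rpgrip1l in lymphoma (-0.51). Rbl2 starts 15549 bases past the end of Chd9, and its KO level was 32.2 and 32.3 CPM in liver beside 34.7 and 34.2 CPM in WT, and 53.5 and 53.3 CPM in brain beside 49.2 and 50.7 CPM. The groups did not overlap in either tissue, but the order was opposite. The share of all genes without such overlap was not counted. Here and below, a lack of overlap therefore only describes the libraries and is no test, least of all with 2 per group. In MEF Rbl2 was at 56.1, 48.8 and 47.4 CPM in WT and at 37.1, 56.6, 55.1 and 52.9 CPM in KO, and in ESC at 15.5, 18.6 and 16.7 CPM in WT and at 20.5, 25.8 and 17.9 CPM in KO. The lymphomas had 61.9, 65.5 and 67.6 CPM in WT, 48.1, 82.8 and 64.5 CPM in HET and 64.4, 58.2 and 55.4 CPM in KO. The combined log2 fold change of Rbl2 was 0.05, with a 95% interval from -0.10 to 0.20.

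Aktip, whose product works in endosomal transport and which overlaps Rbl2, was at 63.8 and 59.6 CPM in WT brain and at 62.6 and 62.4 CPM in KO brain. In MEF it was at 32.6, 31.6 and 31.3 CPM in WT and at 30.3, 32.1, 33.3 and 30.9 CPM in KO. Liver had 6.94 and 8.07 CPM in WT and 8.05 and 8.01 CPM in KO, ESC 27, 23.9 and 35.3 CPM in WT and 31.8, 29.2 and 36.3 CPM in KO, and the lymphomas 10.7 to 20.2 CPM in WT and 10.2 to 15.9 CPM in KO. KO and WT overlapped in all 5 experiments, and the combined log2 fold change was 0.01 (-0.19 to 0.21).

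Rpgrip1l, a protein of the ciliary transition zone, starts 270 bases from the start of Fto on the opposite strand. It was at 38.3 and 40.5 CPM in WT brain and at 40.6 and 37.0 CPM in KO brain, and at 32.2, 28.7 and 30.5 CPM in WT MEF and 30.0, 30.1, 33.8 and 25.9 CPM in KO MEF. Its log2 fold change was negative in all 5 experiments, between -0.01 in ESC and -0.51 in lymphoma, and the combined value was -0.12 (-0.33 to 0.09). In the lymphomas it was at 10.1, 9.70 and 11.6 CPM in WT, 7.59, 5.94 and 8.05 CPM in HET and 4.39, 10.4 and 7.26 CPM in KO, so that the HET tumours lay below all WT tumours and the KO tumours overlapped both. Fto had 204 and 201 CPM in WT brain beside 207 and 201 CPM in KO brain, and a combined log2 fold change of -0.04 (-0.18 to 0.10).

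On the other side of Chd9, Tox3, a high-mobility-group box factor, was at most at 1.57 CPM outside brain and in brain at 47.2 and 45.3 CPM in WT and 43.5 and 46.4 CPM in KO. Sall1, a zinc-finger factor of organ development, was at 52.8 and 51.4 CPM in WT brain and at 46.8 and 47.7 CPM in KO brain, groups that did not overlap (log2 fold change -0.14 ± 0.05, unadjusted p = 0.022, adjusted p = 0.999). Its ESC values spread widely, at 232, 153 and 507 CPM in WT and 305, 289 and 326 CPM in KO, and the lymphoma table does not list it. Cyld, a deubiquitinase that restrains NF-kappaB signalling, was at 53.2 and 53.1 CPM in WT brain and at 54.1 and 50.3 CPM in KO brain, with a combined log2 fold change of -0.05 (-0.18 to 0.07).

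**Figure D1:**
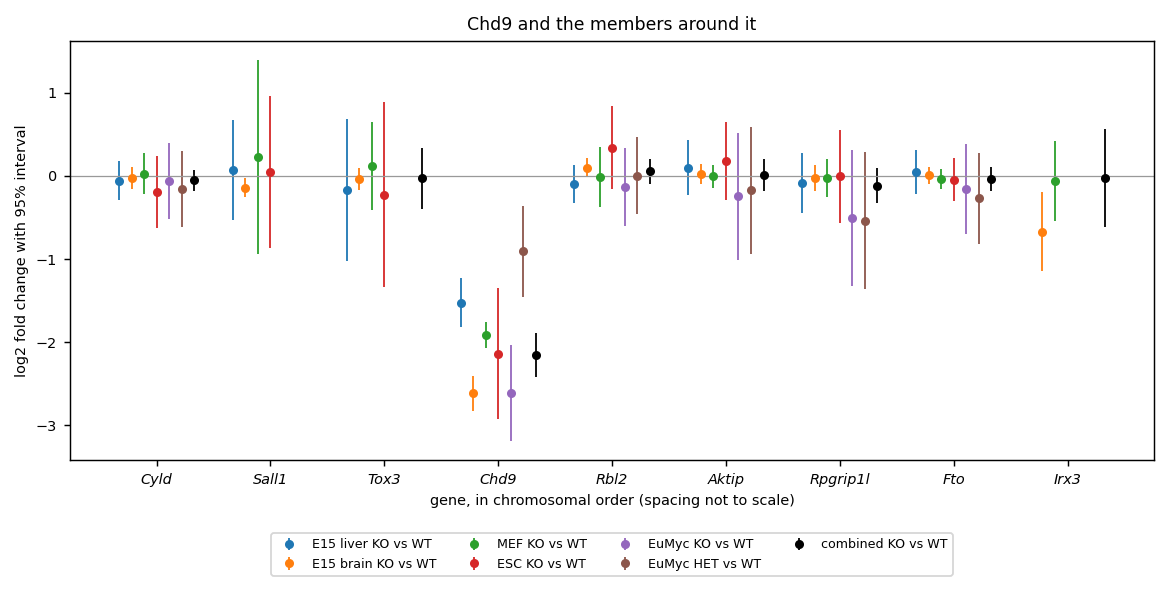
Log2 fold change with its 95% interval (vertical axis) for Chd9 and 8 members around it in chromosomal order (horizontal axis, not to scale), 1 colour per comparison and black for the combined fit of 27 libraries. Chd9 lies at -0.91 in HET lymphomas and between -1.53 and -2.62 in every KO comparison, while Cyld, Rbl2, Aktip, Rpgrip1l and Fto lie within 0.51 of 0 in each KO comparison.

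Lonp2 (chromosome 8, 89147942 to 89247772, plus strand, mm9 as all positions here), the Lon protease of peroxisomes, lies 4.205 Mb from Chd9 and had the smallest p of all members in the combined fit. Its KO and WT libraries did not overlap in brain, at 50.9 and 54.7 CPM in WT and 61.3 and 59.8 CPM in KO, nor in MEF, at 56.2, 60.3 and 62.8 CPM in WT and 67.3, 78.7, 74.3 and 73.2 CPM in KO. They overlapped in liver (61.0 and 80.1 CPM in WT, 94.6 and 75.6 CPM in KO), in ESC (37.2, 41.3 and 45.7 CPM in WT, 48.0, 41.3 and 46.9 CPM in KO) and in lymphoma (34.9, 37.3 and 44.2 CPM in WT, 43.0, 43.0 and 42.8 CPM in KO). HET lymphomas were at 32.9, 41.7 and 25.3 CPM, below all KO lymphomas. Lonp2 was thus higher on average in KO than in WT in each of the 5 experiments, by 0.13 to 0.30 on the log2 scale. The combined log2 fold change was 0.22 ± 0.06 (unadjusted p = 0.000952, adjusted p = 0.9999 by edgeR). It passed the threshold under 1 alternative for the same 27 libraries, limma voom with quality weights, at an adjusted p of 0.0232, and not under DESeq2, at 0.398. Without the E15 tissues and ESC, where Y-linked counts separate the genotypes, the log2 fold change of Lonp2 was 0.23 (unadjusted p = 0.0205), from MEF and lymphomas alone. This set of libraries was chosen after seeing the data. In it the KO lymphomas had at most 2 Y-linked counts, while a WT lymphoma had 3586. Most KO MEF libraries carry a label letter that no WT MEF library carries. Sex and label letter thus remain partly tied to genotype there, and their part was not tested.

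Ciapin1 (97343718 to 97362258, minus strand), which takes part in iron-sulphur cluster assembly, was also higher on average in KO in all 5 experiments. It was at 23.0 and 26.4 CPM in WT liver and at 29.3 and 30.3 CPM in KO liver, at 59.0 and 60.2 CPM in WT brain and at 64.0 and 63.1 CPM in KO brain, and at 51.6, 58.2 and 59.6 CPM in WT lymphomas and 67.4, 78.0 and 69.4 CPM in KO lymphomas. None of these groups overlapped, whereas those of MEF (44.9 to 55.3 CPM in WT, 46.7 to 68.5 CPM in KO) and ESC (128 to 164 CPM in WT, 117 to 172 CPM in KO) did. The combined log2 fold change was 0.19 ± 0.07 (unadjusted p = 0.014, adjusted p = 0.9999 by edgeR). Brd7, a bromodomain subunit of a chromatin remodelling complex, was at 40.3 CPM in both WT livers and at 43.6 and 47.2 CPM in KO livers, at 67.9 and 67.5 CPM in WT brain and at 73.1 and 74.8 CPM in KO brain, and overlapped elsewhere. Its combined log2 fold change was 0.15 ± 0.07 (unadjusted p = 0.0476).

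Agreement of direction between the experiments was counted over the 43 members tested in all 5 KO comparisons, which share no libraries. Whether the livers and brains came from the same embryos is not stated in the study's text or sample titles. These tissues therefore need not be independent. Of the 43, 5 (11.6%) had the same sign in all 5, beside 7.13% of the 11219 genes tested in all of them. The 3 with higher KO values were Lonp2, Ciapin1 and Brd7, and the 2 with lower values were Rpgrip1l and Bbs2, a subunit of the BBSome complex that carries cargo to cilia (between -0.02 and -0.25). The members were not placed in a close order by any 2 experiments. Spearman's rho of their log2 fold changes ran from -0.13 (ESC and lymphoma, 43 members) to 0.34 (liver and lymphoma, 45 members) over 10 pairs of experiments, with a median of 0.08, beside -0.06 to 0.12 and a median of 0.01 for genes on other autosomes. The share of members with the same sign was 41.9% to 68%, with a median of 51%. For genes on other autosomes it was 47.7% to 56.6%, with a median of 49.4%. These are descriptions across genes that share libraries and a chromosome.

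Distance from Chd9 did not order the differences in a steady way. The rank correlation of a member's absolute log2 fold change with its distance was -0.20 over 50 members in liver, -0.05 over 55 in brain, 0.28 over 54 in MEF, -0.04 over 50 in ESC, -0.12 over 45 in lymphoma and -0.04 over 53 in the combined fit. Members within 1 Mb had a median absolute log2 fold change of 0.04 in the combined fit (6 members), those at 1 to 3 Mb 0.10 (12 members) and those beyond 3 Mb 0.09 (35 members), where all genes tested had 0.10. In E15 tissues the members with an unadjusted p under 0.05 were mostly those at 1 to 3 Mb. That band held 3 of 12 tested in liver (background 2.81%) and 5 of 14 in brain (background 3.42%). Within 1 Mb it was 0 of 5 and 1 of 6. Beyond 3 Mb it was 1 of 33 and 1 of 35. The contrast of the 1 to 3 Mb band with members beyond 3 Mb was narrower or turned around in the other fits. The band held 2 of 14 in MEF, 0 of 13 in ESC, 0 of 10 in lymphoma and 1 of 12 in the combined fit. Beyond 3 Mb these were 4 of 34, 3 of 32, 2 of 31 and 2 of 35. Within 1 Mb they were 0 of 6, 0 of 5, 0 of 4 and 0 of 6. The backgrounds were 1.04%, 11.9%, 3.87% and 3.82%.

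**Figure D2:**
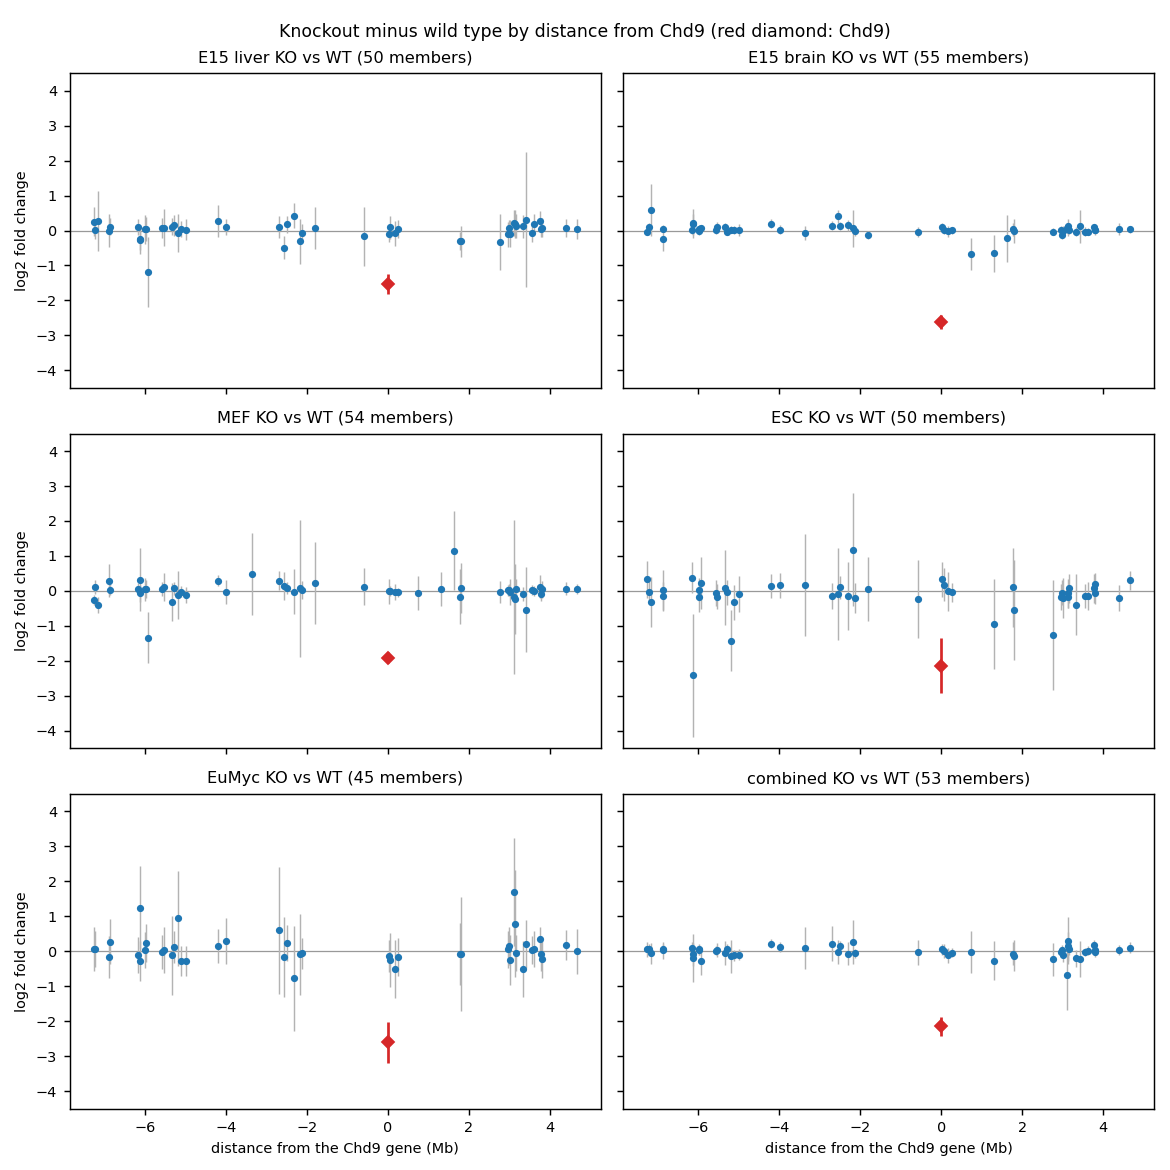
Log2 fold change of KO against WT (vertical axis, with 95% intervals in grey) by distance from the Chd9 gene in Mb (horizontal axis), 1 panel per experiment and 1 for the combined fit. Members are blue points and Chd9 is the red diamond, which lies at -1.53 to -2.62, while the members lie above and below 0 and spread most in ESC and lymphoma. Within 1 Mb, 0 of 4 members tested were above 0 in lymphoma and 1 of 6 in MEF. In liver it was 2 of 5, in brain 3 of 6, in ESC 2 of 5 and in the combined fit 2 of 6. Of all genes tested, 45.9% were above 0 in lymphoma, 50.2% in MEF, 52.0% in liver, 50.5% in brain, 48.0% in ESC and 48.4% in the combined fit.

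Adcy7 (90796302 to 90853861, plus strand), an adenylyl cyclase that makes cyclic AMP, differed in opposite directions in the E15 tissues. It was at 79.6 and 69.7 CPM in WT liver and at 48.9 and 57.2 CPM in KO liver (log2 fold change -0.49 ± 0.13, unadjusted p = 0.0105). In brain it was at 15.9 and 14.6 CPM in WT and at 21.1 and 19.4 CPM in KO (log2 fold change 0.41 ± 0.08, unadjusted p = 0.00124, adjusted p = 0.548). The groups overlapped in neither tissue. The difference between the tissues was 0.90 ± 0.15 on the log2 scale (unadjusted p = 0.000434, adjusted p = 0.9 by edgeR), and DESeq2 gave this difference an adjusted p of 0.00605. In MEF it was at 22.4, 25.6 and 25.9 CPM in WT and at 36.5, 23.1, 23.2 and 25.4 CPM in KO. In the lymphomas single tumours stood out in WT, at 69.6, 239.9 and 77.3 CPM, and in HET, at 88.1, 208 and 84.1 CPM, while the KO tumours were at 119.6, 118 and 106 CPM.

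Over all members the test of a brain minus liver difference called 0 of 55 by edgeR (background 0%) and 1, Adcy7, by DESeq2, and 4 of 55 had an unadjusted p under 0.05 (7.27%, background 3.51%). The other 3 were Mast1, Mmp2 and Lyl1, the last a helix-loop-helix factor of blood cells that overlaps Nfix. Mmp2, a gelatinase of the extracellular matrix, was at 15.3 and 16.7 CPM in WT liver and 13.5 and 12.6 CPM in KO liver, and overlapped in brain (14.8 and 15.7 CPM in WT, 16.3 and 15.1 CPM in KO). Summed fibroblast markers moved with it, at 680 to 699 CPM in WT liver and 576 to 581 CPM in KO liver, and their part in the result was not tested. In bulk tissue fewer cells of a type and less RNA per cell cannot be told apart.

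Mast1 (87435802 to 87461258, minus strand), a microtubule-associated kinase of neurons, was at 265 and 268 CPM in WT brain and at 276 and 282 CPM in KO brain. In liver and MEF few reads fell on it, with 23 and 21 reads in WT liver and 13 and 9 in KO liver, and 14, 15 and 19 reads in WT MEF and 8, 8, 6 and 4 in KO MEF. The log2 fold change was -1.19 ± 0.40 in liver (unadjusted p = 0.028) and -1.34 ± 0.31 in MEF (unadjusted p = 0.00324), and in both the groups did not overlap. In ESC, at 6.04 to 10.4 CPM in WT and 7.01 to 11.2 CPM in KO, they did. Nkd1, an inhibitor of Wnt signalling, was at 4.17 and 3.85 CPM in WT liver and at 5.45 and 5.36 CPM in KO liver (log2 fold change 0.43 ± 0.14, unadjusted p = 0.0278), and at 25.8 and 28.3 CPM in WT brain and 31.0 and 28.9 CPM in KO brain. In lymphoma its order was turned, with 1.38, 2.39 and 1.67 CPM in WT, 1.01, 5.66 and 2.35 CPM in HET and 0.603, 1.40 and 1.15 CPM in KO.

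The homeobox and other transcriptional regulators were a mixed group of 8 (Irx3, Irx5, Irx6, Sall1, Tox3, Nfix, Lyl1 and Nacc1). All 8 were tested in brain and MEF, 5 in liver and ESC and 3 in lymphoma. Nacc1 passed the filter in every experiment. Irx3 and Irx5, 0.744 and 1.303 Mb from Chd9, were both lower in KO brain. Irx3 was at 7.90 and 6.17 CPM in WT brain and at 5.24 and 3.61 CPM in KO brain (log2 fold change -0.67 ± 0.20, unadjusted p = 0.012), and Irx5 at 6.96 and 5.72 CPM in WT and 4.99 and 3.10 CPM in KO (-0.65 ± 0.22, unadjusted p = 0.0214). The groups did not overlap for either gene, and neither passed adjustment (adjusted p = 0.999). In MEF KO and WT overlapped for both, with Irx3 at 18.7, 25 and 26.2 CPM in WT and 23.7, 24.9, 15.2 and 25.5 CPM in KO. Irx6 had 6 to 8 reads in WT MEF and 6 to 36 in KO MEF.

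Nfix (87223775 to 87324243, minus strand), a nuclear factor I transcription factor, showed the widest ESC difference among the members. It was at 21.7, 5.71 and 3.80 CPM in WT ESC and at 3.27, 1.38 and 1.18 CPM in KO ESC (log2 fold change -2.42 ± 0.75, adjusted p = 0.255 by edgeR and 0.0103 by DESeq2). Every KO line was below every WT line, but 1 WT line held most of the WT level, and without WT replicate 1 the log2 fold change was -1.30. Same-numbered ESC lines deviated together, and with the replicate number as a block the adjusted p of Nfix was 0.0704. In liver Nfix was at 21.8 and 21.5 CPM in WT and at 20.3 and 15.4 CPM in KO, again with no overlap (log2 fold change -0.27 ± 0.15, unadjusted p = 0.13). In brain the groups overlapped, at 491 and 497 CPM in WT and 475 and 649 CPM in KO. Without KO replicate 1, which leaves 1 KO brain that is assumed to vary like the WT pair, Nfix passed the threshold there (log2 fold change 0.39, adjusted p = 0.0129). It was at 422, 446 and 458 CPM in WT MEF and 351, 467, 413 and 449.9 CPM in KO MEF. In lymphoma it was at 10.3, 23.9 and 14.6 CPM in WT, 14.2, 44.2 and 32.7 CPM in HET and 21.0, 64.0 and 31.0 CPM in KO (log2 fold change 1.25 ± 0.53, unadjusted p = 0.0427), and without KO replicate 2 the log2 fold change was 0.66.

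A test of whether the KO difference differs among the 5 experiments found 0 of 53 members at an adjusted p under 0.05, where 0.588% of 17674 genes passed, and 4 at an unadjusted p under 0.05 (7.55%, background 7.66%). Nfix came nearest, with an adjusted p of 0.122. Chd9 had an adjusted p of 0.445 in this test.

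Neto2 (88161136 to 88224653, minus strand), an auxiliary subunit of kainate receptors, was at 206 and 199 CPM in WT brain and 207 and 203 CPM in KO brain. In ESC it was low, at 3.08, 4.51 and 4.69 CPM in WT and 1.64, 1.76 and 1.18 CPM in KO, groups that did not overlap (log2 fold change -1.42 ± 0.37, adjusted p = 0.179 by edgeR and 0.00344 by DESeq2). The third member of the ESC set was Cnot1, the scaffold of the CCR4-NOT deadenylase complex, at 646, 736 and 736 CPM in WT and 851, 881 and 878 CPM in KO (log2 fold change 0.30 ± 0.11, unadjusted p = 0.0311). In brain, liver and MEF its log2 fold change was 0.03 to 0.05.

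**Figure D3:**
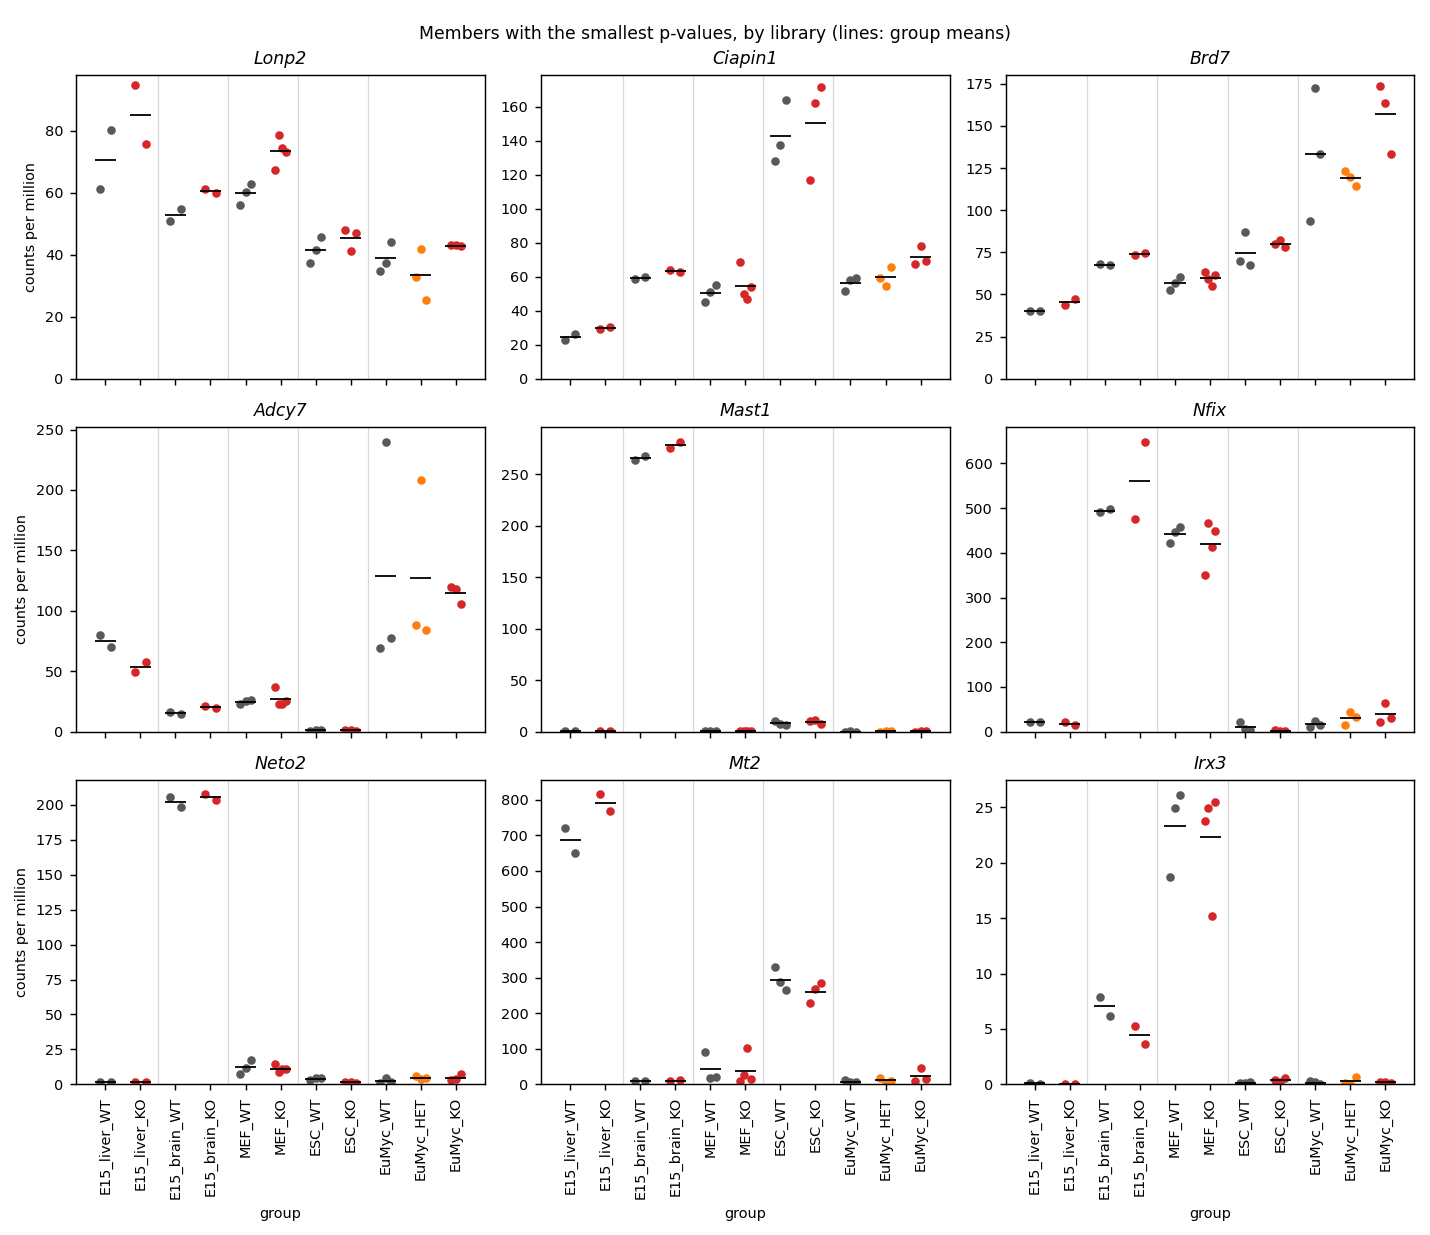
CPM of 9 members in every library (vertical axis, linear, from 0), by group on the horizontal axis, with WT in grey, HET in orange, KO in red and group means as black lines. Lonp2 is higher in every KO than in every WT library of brain and MEF, Adcy7 is lower in KO liver and higher in KO brain, and Mast1 and Neto2 are high only in brain, at 265 to 282 and 199 to 207 CPM.

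In MEF the smallest p-values besides that of Mast1 belonged to Tecr and Ptger1, 7.257 and 7.162 Mb from Chd9. Tecr, the reductase that ends each cycle of very-long-chain fatty acid elongation, was at 179, 189 and 189.9 CPM in WT and at 146, 159, 152 and 163 CPM in KO (log2 fold change -0.26 ± 0.06, unadjusted p = 0.00267). Ptger1, the EP1 receptor for prostaglandin E2, was at 33.5, 37.9 and 36.0 CPM in WT and at 29.6, 28.5, 23.0 and 26.4 CPM in KO (-0.41 ± 0.10, unadjusted p = 0.00407). Neither set of groups overlapped. The labels of 3 KO MEF libraries carry the letter A and those of the other KO and all WT libraries the letter B, so letter A holds KO libraries only. Within letter B, which holds a single KO library, the log2 fold changes were -0.18 for Tecr, -0.43 for Ptger1 and -1.96 for Mast1. Each of these rests on that library, and Mast1 also on few reads. Tecr was also lower in both KO brains, at 288 and 285 CPM beside 294 CPM in both WT brains. In liver the groups overlapped, at 131 and 145 CPM in WT and 187 and 143 CPM in KO. On average Tecr was higher in KO than in WT in liver, ESC and lymphoma.

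Metallothionein genes rise with metals and glucocorticoids, and single libraries differed widely in them. Mt2 was at 721 and 651 CPM in WT liver and at 815 and 769 CPM in KO liver, groups that did not overlap (log2 fold change 0.21 ± 0.15, unadjusted p = 0.211). It ran from 18.1 to 89.9 CPM in WT MEF and from 9.94 to 103 CPM in KO MEF. In lymphoma Mt2 was at 11.6, 5.17 and 5.16 CPM in WT, 18.9, 4.71 and 9.69 CPM in HET and 10.2, 45.6 and 15 CPM in KO (log2 fold change 1.69 ± 0.68, unadjusted p = 0.0345), the widest difference of any member there, and without KO replicate 2 it was 0.78. Mt1 had the same signs as Mt2, with log2 fold changes of 0.18 in liver, -0.23 in MEF, -0.07 in ESC and 0.79 in lymphoma. Mt3, the metallothionein of brain, passed the filter of a single experiment in brain alone, at 33.6 and 32.0 CPM in WT and 33.2 and 35.2 CPM in KO.

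The HET lymphomas, in which Chd9 was at 53.4% of its WT level, had no member under an unadjusted p of 0.05. The smallest p-values were those of Prkaca, the catalytic subunit of protein kinase A, Asf1b, a histone chaperone, and Itfg1. Prkaca was at 40.8, 45.2 and 48.6 CPM in WT, 48.1, 108 and 54.5 CPM in HET and 52.3, 55.9 and 54.5 CPM in KO. Asf1b was at 90.3, 132 and 134 CPM in WT, 100.5, 64.5 and 84.9 CPM in HET and 74.1, 129.5 and 117 CPM in KO. Itfg1 was at 66.6, 50.7 and 63.1 CPM in WT, 55.1, 48.5 and 38.8 CPM in HET and 52.7, 47.0 and 50.4 CPM in KO. WT and HET tumours overlapped for all 3 genes. Lyl1, among the smallest p-values of KO against HET with Nkd1 and Brd7, was at 121, 85.0 and 123 CPM in HET and at 91.0, 60 and 73.2 CPM in KO.

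The remaining groups are given by their ranges. The 5 chaperone and protein-folding genes (among them Calr, the calcium-binding chaperone of the endoplasmic reticulum, and Dnajb1, a co-chaperone of Hsp70) had log2 fold changes of 0.03 to 0.27 in liver, -0.03 to 0.20 in brain, -0.08 to 0.30 in MEF, -0.40 to 0.13 in ESC and -0.51 to 0.15 in lymphoma, with Lonp2 the sole member under an unadjusted p of 0.05. The 9 genes of chromatin, replication, RNA and translation, such as Polr2c, a subunit of RNA polymerase II, lay between -0.23 and 0.30 in all experiments but lymphoma, where Heatr3, a factor of ribosomal protein import, was at 0.59 ± 0.80. Heatr3 was at 37.1 and 37.8 CPM in WT brain and at 42.5 and 40.1 CPM in KO brain, and its log2 fold change was 0.14 ± 0.06 in brain, 0.29 ± 0.12 in MEF (unadjusted p = 0.0365 and 0.0413) and -0.14 ± 0.16 in ESC. The 6 ciliary and body-weight genes lay between -0.10 and 0.19 in liver, -0.04 and 0.10 in brain and -0.04 and -0.00 in MEF. They spread wider in ESC, from -0.20 to 0.34, and in lymphoma, from -0.51 to 0.07. The 6 metabolic genes lay between -0.33 and 0.12 in MEF and -0.04 and 0.09 in brain. Their range was -0.31 to 0.27 in liver, -0.55 to 0.33 in ESC and -0.28 to 0.34 in lymphoma. Nod2, an immune sensor of bacterial cell wall fragments, was at 6.13, 10.3 and 0.99 CPM in WT ESC and at 15.2, 13.4 and 10.7 CPM in KO ESC. These groups did not overlap, but the WT lines spread widely (log2 fold change 1.17 ± 0.69, unadjusted p = 0.132). With the replicate block the log2 fold change of Nod2 was 1.62 ± 0.61 (unadjusted p = 0.0401, adjusted p = 0.268).

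The members that did not pass the filter on low counts were Cbln1, Irx3, Irx5, Irx6 and Mt3 in liver, Mt3 in MEF, Lyl1, Irx3, Irx6, Mt3 and Nlrc5 in ESC, and Ptger1, Mast1, Cbln1, Sall1, Tox3, Irx3, Irx5, Irx6, Gnao1 and Mt3 in the lymphomas. Sall1 and Irx6 are not listed in the lymphoma table and thus had no place in the combined fit.

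**Figure D4:**
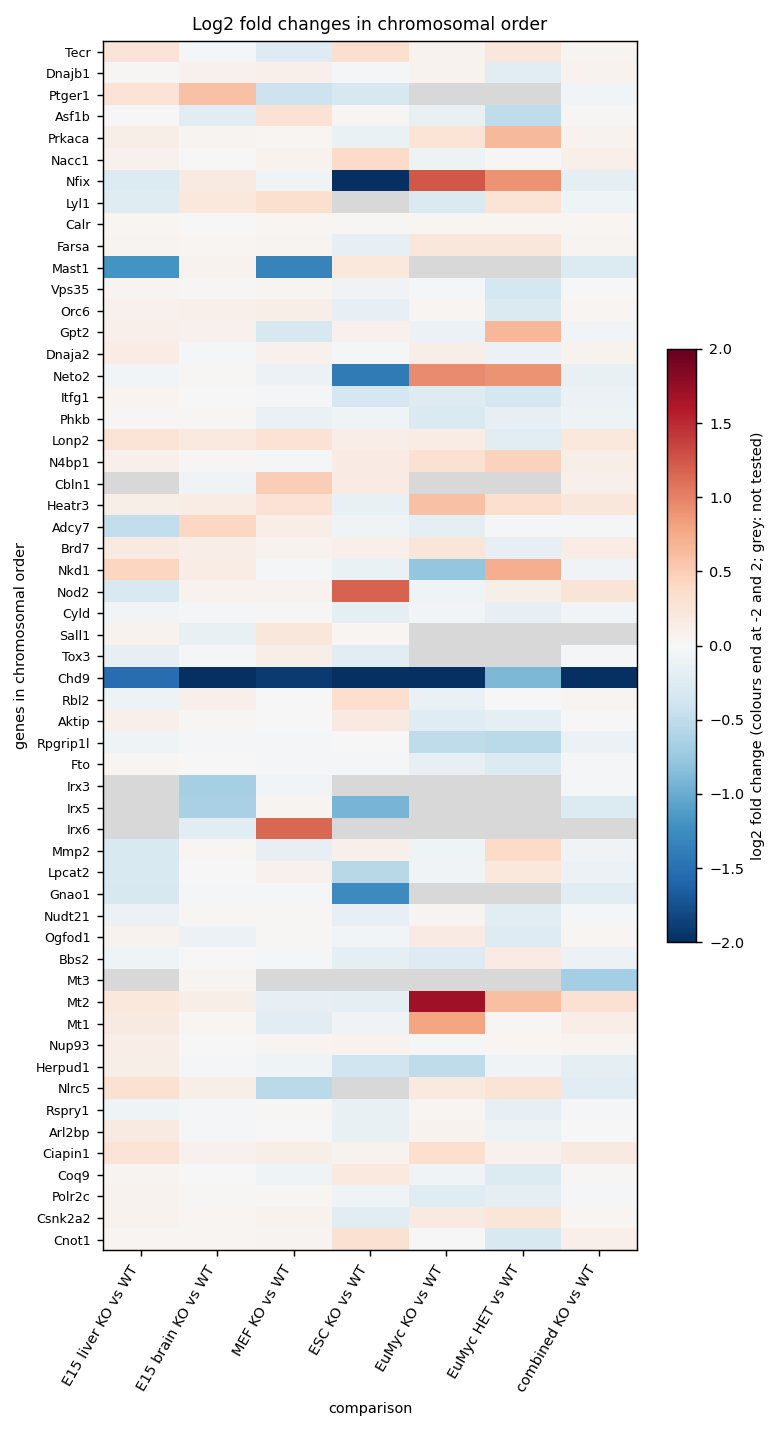
Log2 fold changes of the 55 members and Chd9 (rows, in chromosomal order) in the 5 KO comparisons, the HET lymphomas and the combined fit (columns), with blue for lower and red for higher values and grey for genes not tested. The row of Chd9 is blue throughout, from -0.91 to -2.62, while Rbl2 and Aktip just beside it change colour between columns.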

How the data were processed

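RNA-seq was read from 30 mouse libraries in 4 tables. The authors deposited raw counts per Ensembl gene, made with TopHat2 (version 2.1 in the submitters' processing notes) and HTSeq 0.5.3 on mm9 (MEF, ESC) or mm10 (E15 tissues, lymphomas). The strand setting is not given in the sources used here. Human tables were not used here, and 0 sample columns were left out of the mouse tables.

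Each experiment was fitted with edgeR 4.0.16 in R 4.3.3 (TMM, filterByExpr, glmQLFit, glmQLFTest), with p adjusted over all genes tested by the Benjamini-Hochberg method and a threshold of 0.05. The 9 lymphomas shared a fit, and so did the 8 E15 libraries for the tissue difference, where livers and brains were treated as unpaired. The combined fit held 27 KO and WT libraries, the 19467 genes in all 4 tables and experiment as a term. CPM used TMM-scaled library sizes, and 95% intervals used the fit's degrees of freedom. Tests were checked on simulated counts. Alternatives were DESeq2 1.42.0, its size factors, limma 3.58.1 voom, other filters, a fold limit, a replicate block, MEF and ESC label batches, other sets of libraries and leaving out each library or experiment.

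Members were named in full where they passed the threshold in any comparison, had 1 of the 3 smallest p-values in a comparison, or were among the 3 nearest to Chd9 on each side by gene start (Cyld, Sall1, Tox3, Rbl2, Aktip and Rpgrip1l). Other members named, such as Fto, were added after their values were seen. The members, role groups and lists were chosen with earlier results of these data known. Same-numbered ESC lines deviated together (correlations of 0.468, 0.231 and 0.408 of deviations from group means over genes), so their numbers were used as a block. Lines with different numbers were not compared, so whether the numbers pair the lines was not tested. This use of the numbers comes from the data and not from a stated design. Positions are from the GENCODE annotation of mm9. Sequences are not printed here.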

Additional observations from a re-analysis of the deposited data

Results flagged for a closer look

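Among 25 genes named in the report or used as a check, a library that stood apart was looked for in the group of 4 KO MEF libraries, by the gap to its nearest neighbour as a share of the whole range, against the 95% limit of Dixon's test for 4 libraries. Chance flags about 1 in 20 groups, and 2 were found. Adcy7 was at 36.5 CPM in KO MEF replicate 1, where the nearest library was at 25.4 and the lowest at 23.1 CPM, a share of 0.832. Chd9 was at 36.9 CPM in KO MEF replicate 3, where the nearest library was at 32.5 and the lowest at 31.8 CPM, a share of 0.854. All 4 KO libraries stayed far below the WT libraries in Chd9.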

How the results depend on the processing

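The count of members called was 0 in 111 of 116 alternatives, and 374 of 381 alternatives for single named genes kept the direction. Calls appeared with DESeq2 in ESC (2, Neto2 and Nfix) and for the brain minus liver difference (1, Adcy7), with limma voom in the combined fit (1, Lonp2) and on leaving out a brain library (range 0 to 1, with 1 when KO replicate 1 was left out). The causes were not tested. The count of members with the same sign in all 5 experiments was 5 or 6 under every alternative run. In the combined fit 3 nearby genes reversed sign. Aktip was at -0.0161 without E15 liver, -0.0414 without ESC and -0.111 without E15 liver, E15 brain and ESC, Tox3 at 0.0346 without ESC and 0.197 without those 3, and Rbl2 at -0.0301 and -0.0575 likewise. The combination without those 3 experiments was chosen after seeing the data.

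With the replicate number as a block, 0 members were called in each experiment and in the combined fit, and genes called went from 24 to 12 in ESC, 5 to 3 in liver, 2 to 0 in MEF, 1 to 0 in KO against WT lymphomas and 2 to 1 in the combined fit. Outside ESC each comparison held a negative correlation of same-numbered samples, beside values of up to 0.349 (KO against HET lymphomas). The 2 pairs of livers correlated at -0.426, and a crossed pairing, added after seeing the data, called 167 genes and 1 member.

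Over all genes, DESeq2 called 15 in liver against 5 by edgeR, 31 in brain against 9, 724 in ESC against 24, and 33, 13 and 9 in the lymphoma comparisons against 1, 0 and 0. Without ESC WT replicate 3 there were 174 calls in ESC, and without brain KO replicate 1 there were 74 in brain. The lymphomas' depth and spread limit detection most, with a biological coefficient of variation of 0.463 against 0.0588 in brain.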

Other observations

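Heatr3, chosen after its values were seen, was at 4.59 CPM in WT lymphoma replicate 1, against 138 and 74.6 CPM in the other WT lymphomas and 76.6 to 132 CPM in the HET and KO lymphomas. Its neighbours in that tumour were not low to the same degree, with Brd7 at 93.9 CPM and Adcy7 at 69.6 CPM. In ESC, WT replicate 3 had the highest level of Chd9, at 201 CPM, and of Sall1, at 507 CPM.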
